A study of Danio rerio with 5 samples.

Results

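Translation initiation factors (eIFs) and elongation factors (eEFs) were followed on arrays of the upper digestive tract of adult zebrafish. They were taken as every probe set whose single gene symbol in the platform annotation starts with eif1 to eif6 or with eef1 or eef2, so that the kinases, binding proteins and a methyltransferase named after a factor were included. The rule found 80 probe sets for 64 genes, among 15502 probe sets on the array besides controls and 8793 genes named there. A further 2 probe sets, shared by eif4g1a with selenof and by eef1da with cirbpb, have 2 symbols each and were left out. Each of 5 arrays held RNA of 1 pool, made from the tissue of 3 fish of the AB background at an age of 3 months, with 3 pools from zCdx1b transgenic fish and 2 from wild type. The transgenic fish carry zebrafish Cdx1b and EGFP behind a zebrafish K5 promoter fragment, in a Tol2 plasmid injected with transposase RNA into AB* eggs at the one-cell stage. Whether the fish came from 1 line or from several insertions, and the sex of the fish, are not known here.

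Translation of a messenger RNA starts when the eIF4F complex binds the cap and a small ribosomal subunit carrying eIF1A, eIF2, eIF3 and eIF5 scans to the start codon. The elongation factor eEF1A then brings each aminoacyl-tRNA to the ribosome, eEF1B recharges eEF1A with GTP, and eEF2 moves the ribosome on by a codon. Most of these proteins are needed in every cell, but some are encoded by paralogs that differ between tissues, of which the eEF1A isoforms of muscle and neurons in mammals and the oocyte form of eIF4E in fish and frogs are examples.

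Values are the log2 expression values deposited for each array, and a change is the transgenic minus the wild-type mean on that scale. The arrays shared the same mean value of 4.89, but the standard deviation over probe sets was lowest on wild-type pool 2, at 1.58 against 1.70 to 1.79 on the other arrays. Cell type markers differed between the groups: all 9 exocrine pancreas, 11 hepatocyte, 8 intestinal absorptive and 4 smooth muscle markers tested rose in the transgenic pools, and all 10 squamous epithelium markers fell (3 to 10 with each array left out). Their median changes were 8.59, 7.06, 6.70, 2.30 and -2.52. The log2 of the summed level of a list was 15.75 to 15.93 in transgenic against 7.36 in both wild-type pools for exocrine pancreas, and 14.32 to 14.70 against 6.99 to 7.21 for hepatocytes. It was 14.82 to 15.03 against 7.33 to 7.98 for intestinal absorptive cells, 11.07 to 11.56 against 8.60 to 9.50 for smooth muscle, and 11.74 to 12.47 against 13.98 to 14.10 for squamous epithelium. In the wild-type pools 4 of the 8 intestinal absorptive, 5 of the 9 exocrine pancreas and 10 of the 11 hepatocyte markers lay at or below the background bound, which is the highest reading on the same array among 44 control probe sets that match bacterial transcripts or tags. The wild-type RNA thus carried the squamous markers (krt5 at 11.84 ± 0.23, SD, n = 2) with few intestinal ones, whereas the transgenic RNA carried both. The part of these cell types in the changes of the factors was not tested, and in tissue RNA fewer cells of a type and less RNA per cell cannot be told apart.

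Most of the translation factors did not pass the test. Of the 80 probe sets, 72, for 59 genes, were tested, having reached the 40th percentile on 2 or more arrays. The 8 others read between 2.81 and 4.28 and belong to eef1akmt2, eef1a1b, eif2d, eif2ak3 (2 of 3 probe sets), eif3eb, eif4g3a (1 of 3) and eif4g3b. By limma with Benjamini-Hochberg adjustment over all 10335 probe sets tested, at a threshold of 0.05, 3 factor probe sets rose, 3 fell and 66 did not pass. That is 8.33% of the factor probe sets, where 21.8% of all probe sets tested passed, 10.1% higher and 11.7% lower in transgenic pools. An unadjusted limma p under 0.05 was seen in 17 of the 72 factor probe sets and in 3639 of all 10335. The 6 calls belong to 5 genes: eif4a1a, eif4ebp3l and eef2a.1 rose, and eef2l2, with 2 probe sets, and eef1a1a fell. The median change over the 72 probe sets was -0.08, with quartiles at -0.35 and 0.26, beside a median of -0.10 and quartiles of -0.48 and 0.32 over all probe sets tested. A change of over 2-fold was seen in 7 factor probe sets, or 9.72%, against 21.1% of all. The groups did not overlap for 32 factor probe sets, or 44.4%, against 50.9% of all. In 13 of them all transgenic pools were above (18.1%, against 20.1% of all), and in 19 all were below (26.4%, against 30.8%). Where a gene had several probe sets they are called the first, the second and the third in the order of their identifiers.

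The number of falls depended on the scaling. After quantile normalization 2 factor probe sets were higher and 13 lower, which is 2.78% and 18.1% against 10.8% and 15.1% of all probe sets, and the 10 added falls came from eef1a1l1, eef1b2, the third eef2l2 probe set, eif2b4, eif2s2, eif3f, eif3g, eif5a and both probe sets of eif5a2. Without wild-type pool 2 the counts were 3 and 12, or 4.17% and 16.7%, against 8.84% and 16.4% of all probe sets. With wild-type pool 1 left out they were 7 and 2, or 9.72% and 2.78%, against 11.8% and 8.41% of all. Median centring of each array left them at 3 and 3.

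A breakdown by level of the values as deposited was chosen after the values were seen. In it, none of the 16 factor probe sets with a mean level of 9 or more was called, against 41.3% of all probe sets at such levels. Of these 16, eef1a1l1, eef1b2, eif3f, eif3g, the first eif5a and the second eif5a2 probe set passed as lower after quantile normalization. The share of all probe sets at such levels was not counted under that scaling. Of the 17 factor probe sets between 7 and 9, 5.88% were called, against 28.8% of all. In the range from 5 to 7 the shares were 12% of 25 and 24.1%, and below 5 they were 14.3% of 14 and 16.2%.

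**Figure D1:**
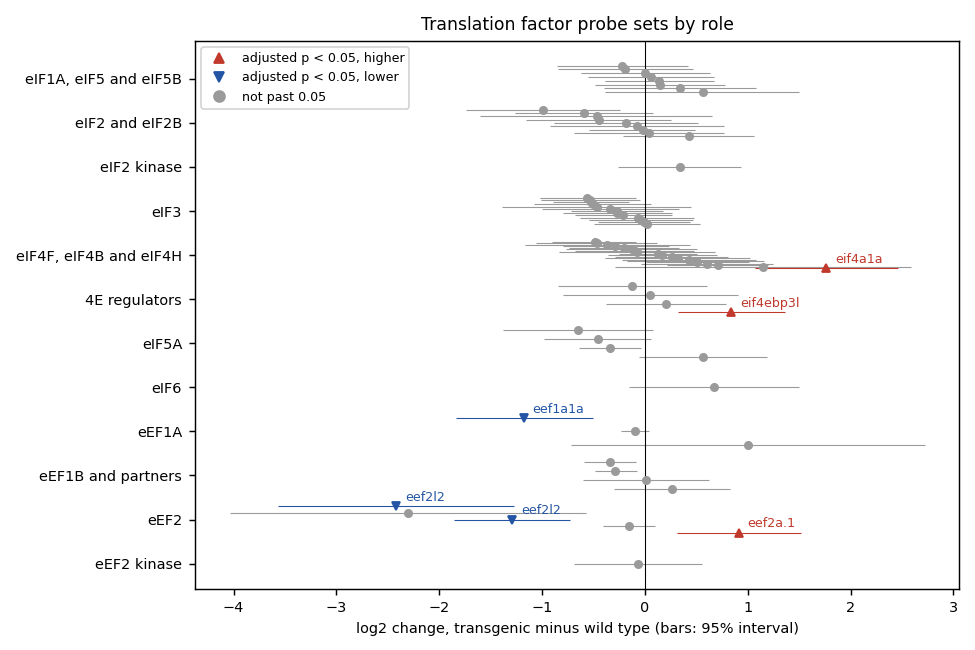
Log2 change (transgenic minus wild type, x axis) of the 72 factor probe sets tested, by the role of the factor (y axis), with 95% intervals from limma as bars. The points centre near 0, and the 6 probe sets past an adjusted p of 0.05 are coloured and named, from eef2l2 at -2.42 to eif4a1a at 1.76.

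Of the 5 probe sets of eEF2 genes 2 fell, both of eef2l2, and 1 rose (40% and 20%, against 11.7% and 10.1% of all probe sets). The eEF2 probe sets hold the largest fall among the factors. The gene eef2l2 (eukaryotic translation elongation factor 2, like 2) is a paralog of eEF2, the GTPase that shifts the ribosome along the message, and had 3 probe sets. The first read 8.25 and 7.79 in wild-type pools 1 and 2, and 4.75, 5.83 and 6.22 in transgenic pools 1, 2 and 3. It fell by 2.42 (SE 0.47, limma adjusted p = 0.0173), or 5.34-fold. Every transgenic pool lay below both wild-type pools, and pool 1 was the lowest. The second, whose identifier has the suffix for probes that may match other transcripts too, read 5.82 and 5.56 in wild-type pools and 4.07, 4.52 and 4.59 in transgenic pools. It fell by 1.29 (SE 0.23, limma adjusted p = 0.0133). On this probe set transgenic pool 1 was only 0.12 above its background bound, and pools 2 and 3 were 0.81 and 0.85 above theirs. The third read 9.08 and 8.58 in wild-type pools and 5.12, 6.88 and 7.58 in transgenic pools, a change of -2.30 (SE 0.71) that did not pass with a limma adjusted p of 0.0676. In all 3 probe sets transgenic pool 1 was the lowest, pool 3 was the highest of the transgenic pools, and both wild-type pools lay above them.

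Leaving out an array ended some of these calls. The call of the first eef2l2 probe set was lost without wild-type pool 1 or wild-type pool 2, with limma adjusted p-values of up to 0.0871, and that of the second without wild-type pool 1 or transgenic pool 2, with values of up to 0.0553. The third probe set passed without transgenic pool 1 and without transgenic pool 3, at a lowest adjusted p of 0.0288 over the arrays left out.

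The medians of striated muscle and squamous epithelium markers had the same order of transgenic pools as eef2l2, and lay below those of both wild-type pools. Relative to the wild-type mean, transgenic pools 1, 2 and 3 had medians of -3.75, -1.76 and -1.02 over the 12 striated muscle markers, all of which were tested. Those of the squamous list were -3.24, -2.08 and -1.82. The leukocyte list, at -1.11, -0.76 and -0.68, had that order too, and the neuronal list, at -0.85, -0.66 and -0.77, did not. Factors that did not pass, such as eif2s1a and eif3jb, also shared it. Of the striated muscle markers 0 rose, 1 fell (tnnt3a) and 11 did not pass. Without transgenic pool 1 8 of the 12 fell (66.7%, against 7.82% of all probe sets), and without transgenic pool 3 7 fell (58.3%, against 8.21%). Without transgenic pool 2 0 fell, against 3.35% of all. The median change of -2.25 was -2.23 with wild-type pool 1 left out and -2.24 with pool 2 left out. The log2 of the summed level of the muscle list was 10.68, 13.00 and 13.91 in transgenic pools and 14.76 and 14.83 in wild-type pools, and none of the 12 markers was at background in all pools of a group. The muscle creatine kinase ckma, for example, read 7.46, 9.94 and 10.58 in transgenic pools against 11.69 and 11.83 in wild-type pools, which is the same order of transgenic pools again. The parvalbumin genes pvalb1 and pvalb2 had that order too, but lay above both wild-type pools in transgenic pool 3. They read 9.19 and 10.35 there and 5 or less on the other arrays. The part of these cell types in the fall of eef2l2 was not tested. Signs of RNA quality differed between the pools as well. The 3' minus the 5' control reading of gapdh moved with eef2l2, at 0.63, 0.86 and 0.98 in transgenic pools 1, 2 and 3 and 1.01 and 1.02 in wild-type pools. The 3' minus the middle reading of acta1 had the same order of transgenic pools, at 1.08, 1.13 and 1.23. It was lowest in wild-type pools, at 0.86 and 0.89, where eef2l2 was highest. The part of either reading was not tested.

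**Figure D2:**
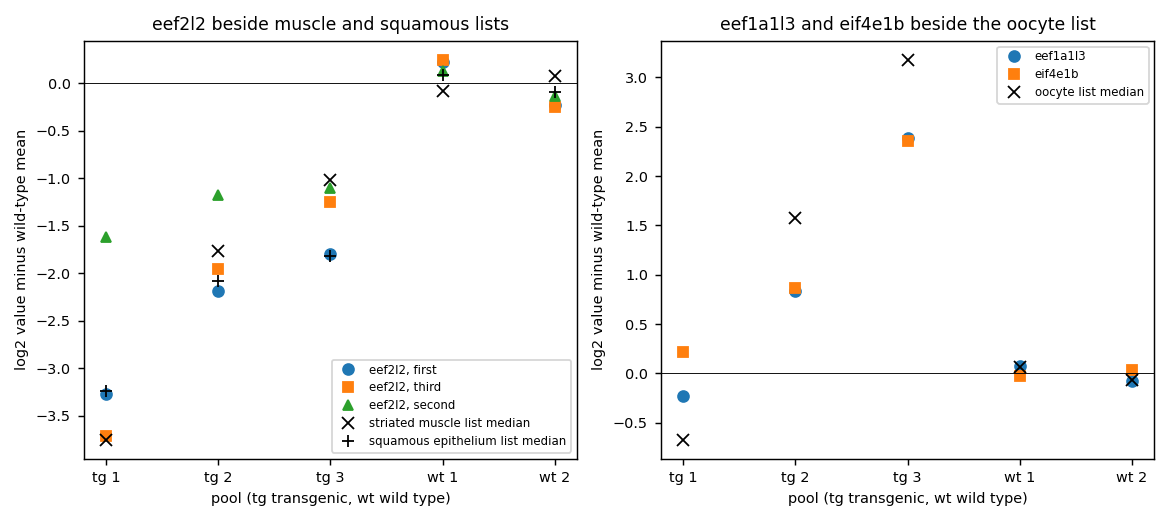
Values per pool relative to the wild-type mean (y axis, log2) for the 3 eef2l2 probe sets beside the medians of the striated muscle and squamous lists (left), and for eef1a1l3 and eif4e1b beside the median of the oocyte list (right). In both panels transgenic pool 1 is the lowest and transgenic pool 3 the highest of the transgenic pools.

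The other eEF2 genes had no fall that passed. The gene eef2b, which codes for the common eEF2, read 11.60, 11.50 and 11.36 in transgenic pools and 11.57 and 11.72 in wild-type pools. Its change of -0.16 (95% interval -0.41 to 0.10, limma adjusted p = 0.363) did not pass, and the groups overlapped. The gene eef2a.1, another eEF2 paralog, read 4.98, 4.73 and 4.88 in transgenic pools and 4.30 and 3.60 in wild-type pools, and rose by 0.91 (SE 0.25, limma adjusted p = 0.0471). Wild-type pool 2 was 0.54 below its background bound, wild-type pool 1 was 0.66 above its own, and the transgenic pools were 1.01 to 1.14 above theirs. This call was lost under 9 of 15 alternatives, among them every transgenic pool left out in turn and wild-type pool 2 left out, with limma adjusted p-values of up to 0.125. The kinase gene eef2k, whose product phosphorylates and thereby inhibits eEF2, read 5.86, 6.01 and 5.76 in transgenic pools and 5.68 and 6.20 in wild-type pools, a change of -0.07 (95% interval -0.69 to 0.55) with overlapping groups.

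Of the 3 eEF1A genes tested, 1 fell (33.3%, against 11.7% of all probe sets). This factor carries aminoacyl-tRNA to the ribosome, and zebrafish have several genes for it. The gene eef1a1l1 read 12.73, 12.68 and 12.70 in transgenic pools and 12.75 and 12.85 in wild-type pools. Its change was -0.10 (95% interval -0.23 to 0.04, limma adjusted p = 0.276), the narrowest interval of the eEF1A genes, and it passed after quantile normalization at 0.048. The gene eef1a1a read 3.95, 4.02 and 4.07 in transgenic pools and 5.61 and 4.76 in wild-type pools, and fell by 1.18 (SE 0.27, limma adjusted p = 0.0291). Its transgenic values were between 0.00 and 0.33 above the background bound, so its level there was close to background on each array. The call was lost without any one of the transgenic pools, with limma adjusted p-values of up to 0.0978, and held without either wild-type pool, while the probe set was too low to be tested with the 60th percentile filter. Of 7 neuronal markers tested 3 fell, or 42.9% against 11.7% of all probe sets. With any transgenic pool left out 1 fell (14.3%, against 3.35% to 8.21% of all). The median change was -0.77, and -0.66 or -0.89 with wild-type pool 1 or 2 left out. The log2 summed level of the neuronal list was 7.11 to 8.59 in transgenic against 8.12 to 9.01 in wild-type pools. The part of these and of the squamous cells in the fall of eef1a1a was not tested. The gene eef1a1b read between 3.25 and 3.56 on all arrays, at or below background, and was not tested.

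The gene eef1a1l3 varied among the transgenic pools. It read 4.24, 5.30 and 6.85 in transgenic pools 1, 2 and 3 and 4.54 and 4.39 in wild-type pools. Its change of 1.0 (SE 0.71, limma adjusted p = 0.386) did not pass. Transgenic pool 1 lay below both wild-type pools, and pools 2 and 3 lay above them. The cap-binding protein gene eif4e1b, a form of eIF4E known from oocytes and early embryos, had the same order of transgenic pools. It read 3.67, 4.32 and 5.81 in transgenic pools and 3.42 and 3.48 in wild-type pools, where both values were below background, as was that of transgenic pool 1. The change of 1.15 (SE 0.59, limma adjusted p = 0.233) did not pass, and the transgenic mean was at least 1.64-fold above the wild-type bound.

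The oocyte list, too, was highest in transgenic pool 3. Of 9 oocyte markers measured 7 were tested, and 0 rose or fell by limma (0 at an unadjusted p under 0.05). Without transgenic pool 1 5 of the 7 were called higher (71.4%, against 9.4% of all probe sets), with a median of 2.40. Transgenic pools 1, 2 and 3 had medians of -0.67, 1.58 and 3.18 over these 7, with the wild-type mean at 0. The log2 of the summed level of all 9 was 6.92, 9.24 and 10.79 in transgenic pools and 7.94 and 7.84 in wild-type pools, and 2 of the 9, the egg coat gene zp3d.2 and the germ cell gene ddx4, were at background in both wild-type pools. The egg coat gene zp3b read 3.84, 7.19 and 8.60 in transgenic pools and 5.62 and 5.23 in wild-type pools. The poly(A)-binding protein gene pabpc1l, a form known from oocytes, read 3.56, 4.66 and 5.70 against 3.84 and 4.14. The 4E-binding protein gene eif4enif1, whose product 4E-T carries eIF4E into processing bodies, read 4.01, 4.33 and 4.97 against 4.53 and 4.60, a change of -0.13 that did not pass. The part of oocyte RNA in the values of these factors was not tested.

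Of the 4 genes of the exchange factor eEF1B and its partners 0 passed by limma, with 2 at an unadjusted p under 0.05. Such a p was seen in 3639 of all 10335 probe sets tested. The nucleotide exchange subunit gene eef1b2 read 10.92, 10.90 and 10.86 in transgenic pools and 11.32 and 11.15 in wild-type pools. The groups did not overlap, but the change of -0.34 (SE 0.10) had a limma adjusted p of 0.067. The scaffold subunit gene eef1g, at 11.66, 11.70 and 11.62 against 12.03 and 11.87, had a change of -0.29 (SE 0.08) and an adjusted p of 0.0574. Both passed without wild-type pool 2, and eef1b2 also after quantile normalization, at 0.00967. The exchange subunit gene eef1db had a change of 0.26 and the synthetase partner gene eef1e1 one of 0.01, and neither passed. The methyltransferase gene eef1akmt2 read between 3.04 and 3.23 and was not tested.

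**Figure D3:**
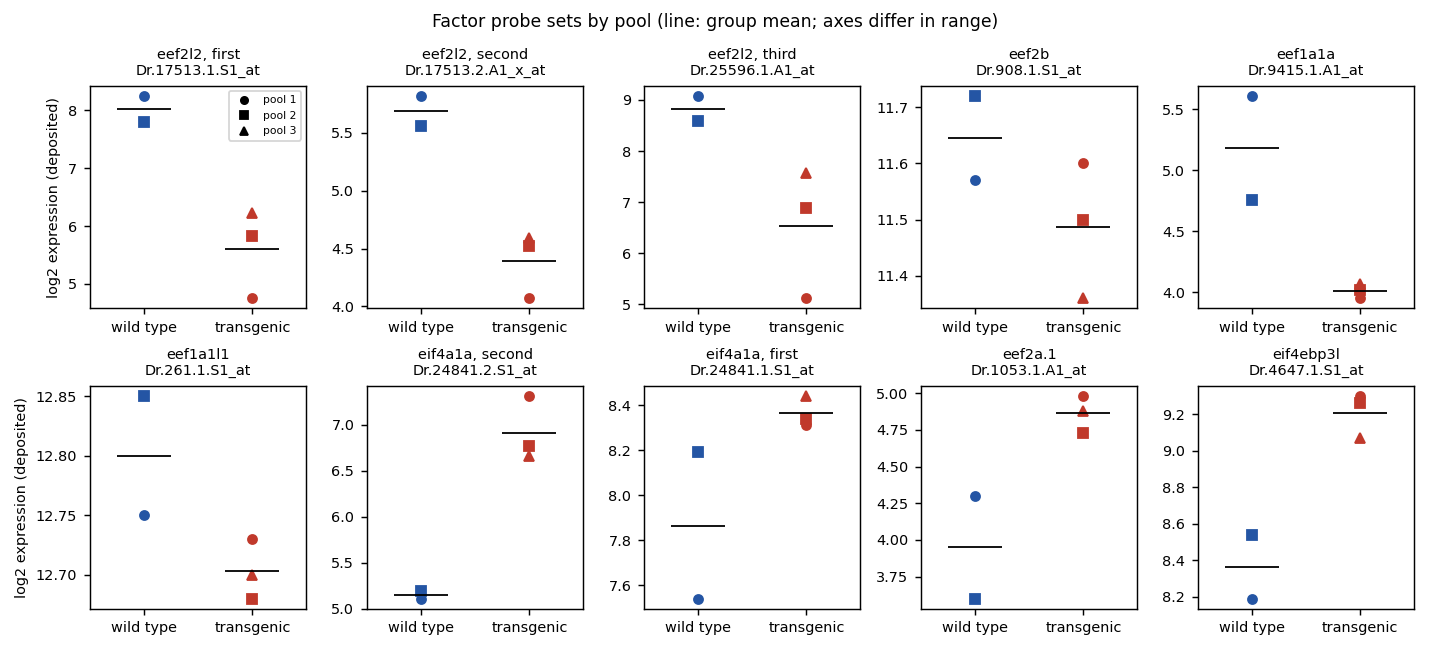
Deposited log2 expression (y axis, range differing between panels) in 2 wild-type and 3 transgenic pools for the called probe sets, the third eef2l2 probe set and paralogs of the called genes, with a line at each group mean. The groups overlap for eef2b, between 11.36 and 11.72, and are apart in the other panels, from the first eef2l2 probe set with a change of -2.42 to eef1a1l1 with one of -0.10.

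Among cap-binding and helicase factors, eif4a1a rose. Of the 19 probe sets tested for eIF4F, eIF4B and eIF4H, 1 rose and 0 fell (5.26% and 0%, against 10.1% and 11.7% of all probe sets). An unadjusted limma p under 0.05 was seen in 4 of the 19, against 3639 of all 10335, and the median change was 0.17. The gene eif4a1a codes for eIF4A, the RNA helicase of the eIF4F complex, and had 2 probe sets. The second read 7.31, 6.77 and 6.66 in transgenic pools and 5.11 and 5.19 in wild-type pools. It rose by 1.76 (SE 0.28, limma adjusted p = 0.00924), or 3.4-fold, and passed under all 15 alternatives, with adjusted p-values from 0.00607 to 0.0424. Among the alternatives, a threshold of 0.1, a minimum of 2-fold and a restriction to probe sets above background reused the limma adjusted p of 0.00924. They could not lose this call. The first eif4a1a probe set read 8.31, 8.34 and 8.44 in transgenic pools and 7.54 and 8.19 in wild-type pools, also without overlap. Its change of 0.50 (95% interval -0.17 to 1.16, limma adjusted p = 0.26) did not pass, except without wild-type pool 2 (limma adjusted p = 0.0366). Exocrine pancreas markers, with medians of 8.76, 8.59 and 8.43 over wild type in transgenic pools 1, 2 and 3, and hepatocyte markers, with 7.27, 7.13 and 6.78, had the same order of transgenic pools as the second eif4a1a probe set, as did the intestinal absorptive list, with 6.85, 6.72 and 6.53, and the smooth muscle list. The first eif4a1a probe set had the reverse order, while eif4a1b and eef2b, which did not pass, shared that of the second. The part of these cell types in the rise was not tested.

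The other eIF4A genes did not pass. The paralog eif4a1b read 9.35, 9.30 and 9.09 in transgenic pools and 9.75 and 9.31 in wild-type pools, a change of -0.29 (95% interval -0.80 to 0.23). The gene eif4a2 had a change of -0.37 (SE 0.33), with wild-type pool 1 at 8.03 and the other 4 arrays between 7.10 and 7.24. The gene eif4a3, whose product belongs to the exon junction complex on spliced RNA, had one of -0.47 (SE 0.24) without overlap.

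Of the eIF4E genes, which code for the cap-binding subunit, 0 passed limma's test. The gene eif4e1c, of a form of eIF4E found in fish, came closest, with its second probe set at 5.63, 5.78 and 5.83 in transgenic pools and 5.16 and 4.93 in wild-type pools. Its change was 0.71 (SE 0.20, limma adjusted p = 0.0557), and it passed after quantile normalization, without a trend in eBayes, with the 60th percentile filter and without wild-type pool 1, at a lowest value of 0.0275. Its first probe set read 5.35, 5.63 and 5.69 against 5.07 and 5.03, with a change of 0.51 (adjusted p = 0.134, limma). The gene eif4ea read 6.07, 6.20 and 6.56 against 5.85 and 5.50, a change of 0.60 (SE 0.26, limma adjusted p = 0.167). Thus eif4ea and both probe sets of eif4e1c lay higher in every transgenic pool than in either wild-type pool without passing. So did eif4e1b, which was partly below background. Of all probe sets tested, 20.1% had every transgenic pool above both wild-type pools. The 2 probe sets of eif4e3 had changes of 0.32 and 0.43 and eif4e2rs1 had one of -0.20, all with overlapping groups.

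The scaffolds and cofactors of the complex did not pass. The scaffold-like gene eif4g2b had a change of 0.26, and the probe sets of eif4g2a had changes of 0.13 and -0.08. Of the 3 probe sets of the scaffold gene eif4g3a, the second had a change of -0.49 (SE 0.17, limma adjusted p = 0.0872) with its transgenic values at most 0.08 above background, the first had one of -0.13, and the third was not tested. The helicase cofactor genes eif4bb and eif4h had changes of 0.17 and -0.10.

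Of the inhibitors of eIF4E, eif4ebp3l rose. Proteins of the 4E-BP family hold eIF4E away from the scaffold until the kinase mTOR phosphorylates them. The gene eif4ebp3l read 9.30, 9.26 and 9.07 in transgenic pools and 8.19 and 8.54 in wild-type pools. It rose by 0.84 (SE 0.21, limma adjusted p = 0.0387) and the lowest transgenic pool lay above the highest wild-type pool. The smooth muscle list, with medians of 2.54, 2.35 and 2.02 over wild type, had the same order of transgenic pools. The pancreas, hepatocyte and intestinal absorptive lists shared it, as did eif4ebp1 and eif4ebp2, which did not pass. The part of these cell types in the rise of eif4ebp3l was not tested. This call was lost under 7 of 15 alternatives, among them each transgenic pool and wild-type pool 1 left out, with limma adjusted p-values of up to 0.223. The gene eif4ebp1 read 7.33, 7.27 and 7.22 in transgenic pools and 7.73 and 6.72 in wild-type pools, which lay on either side, and its change was 0.05 (95% interval -0.80 to 0.90). The gene eif4ebp2, at 9.41, 9.35 and 9.22 against 9.44 and 8.81, had a change of 0.20 (95% interval -0.38 to 0.79).

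The subunits of eIF3, the scaffold that holds the small ribosomal subunit ready for the message, had changes below 0 in 12 of the 13 genes tested, of 14, but 0 passed by limma, with 3 at an unadjusted p under 0.05. Of all 10335 probe sets tested, 6000 were below 0 and 3639 had an unadjusted limma p under 0.05. The eIF3 changes had a median of -0.27 and a range from -0.56 to 0.02. The median was -0.42 after quantile normalization, -0.21 with median centring, -0.10 with wild-type pool 1 left out and -0.46 with pool 2 left out, with 13, 10, 8 and 13 of the 13 genes below 0. The subunit gene eif3f read 10.00, 9.96 and 9.90 in transgenic pools and 10.62 and 10.33 in wild-type pools, a change of -0.52 (SE 0.15, limma adjusted p = 0.0561). It passed after quantile normalization, with a robust trend, with the 60th percentile filter and without wild-type pool 2, at a lowest value of 0.00859. The RNA-binding subunit gene eif3g (-0.53, adjusted p = 0.111, limma), eif3c (-0.51, 0.181), eif3d (-0.21, 0.52) and eif3hb (-0.56, 0.0885, with transgenic pool 1 at its background bound) also lay lower in each transgenic pool than in either wild-type pool. With eif3f, 5 of the 13 genes did so, where 30.8% of all probe sets tested did. The core subunit genes eif3ba and eif3i, with changes of -0.01 and -0.04, and eif3s10, with 0.02, overlapped between the groups.

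Of the 9 genes tested for eIF2, which carries the initiator tRNA, and for eIF2B, which recharges it with GTP, and for the related eif2a, 0 passed by limma, with 1 at an unadjusted p under 0.05. The median change was -0.18, and it was -0.25 after quantile normalization, -0.12 with median centring, 0.24 with wild-type pool 1 left out and -0.60 with pool 2 left out, so its direction depended on the wild-type array. The eIF2B subunit gene eif2b4 had the largest change, at 4.54, 4.89 and 4.85 in transgenic pools and 6.20 and 5.30 in wild-type pools, or -0.99 (SE 0.31, limma adjusted p = 0.0681), and passed after quantile normalization and without wild-type pool 2. The eIF2 beta subunit gene eif2s2 was at 7.49, 7.43 and 7.36 against 8.32 and 7.71, a change of -0.59 (SE 0.28, limma adjusted p = 0.189). The paralogs of the alpha subunit, eif2s1a and eif2s1b, had changes of -0.45 and -0.08. The gene eif2b1 read 5.46 in wild-type pool 1 and 3.92 in wild-type pool 2, which is wider than the difference between the groups of -0.47.

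The eIF2 kinase gene eif2ak3 codes for PERK, which phosphorylates eIF2 when unfolded protein builds up in the endoplasmic reticulum. The third of its probe sets read 5.56, 5.51 and 5.66 in transgenic pools and 5.54 and 4.94 in wild-type pools, a change of 0.34 (95% interval -0.26 to 0.93), and its other 2 probe sets were at background and not tested.

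The start codon factors eIF1A, eIF5 and eIF5B passed by limma with 0 of 8 probe sets, and 0 had an unadjusted p under 0.05. Their changes ran from -0.22 to 0.56. The 2 probe sets of eif1axa had changes of 0.56 and 0.00, and the 3 of eif1axb had changes of -0.22, -0.19 and 0.34. The GTPase-activating factor gene eif5 had a change of 0.15, and eif5b, which joins the subunits, changes of 0.14 and 0.06. Their median of 0.10 became 0.34 with wild-type pool 1 left out and -0.17 with pool 2 left out.

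The eIF5A genes code for the hypusine-bearing factor that helps ribosomes through stalling sequences, and 0 of their 4 probe sets passed by limma, with 1 at an unadjusted p under 0.05. The first probe set of eif5a read 10.59, 10.58 and 10.53 in transgenic pools and 11.02 and 10.79 in wild-type pools, a change of -0.34 (SE 0.12, limma adjusted p = 0.0996). The second read 6.97, 6.80 and 6.49 against 6.22 and 6.16, a change of 0.56 (SE 0.26, limma adjusted p = 0.18). The groups were apart in both, in opposite directions, so the probe sets of eif5a disagree. The paralog eif5a2 had changes of -0.65 and -0.46 (adjusted p = 0.186 and 0.191, limma) on its 2 probe sets. After quantile normalization the first eif5a probe set and both eif5a2 probe sets passed as lower. The gene eif6, whose product keeps the large ribosomal subunit from joining too early, had a change of 0.67 (SE 0.34, limma adjusted p = 0.227), with wild-type pool 2 at 5.10 and the other arrays between 6.12 and 6.32.

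Paralogs were also compared within arrays, as each gene's value minus that of the paralog with the highest mean reading, with the brightest probe set of each gene. An exact permutation test of 3 against 2 arrays cannot go below 0.1, so these differences are given as a description with no test. The third eef2l2 probe set stood at -4.96 ± 1.38 (SD, n = 3) relative to eef2b in transgenic pools and at -2.81 ± 0.47 (SD, n = 2) in wild-type pools, a change of -2.15. The gene eef2a.1 changed by 1.07 relative to eef2b, and eef1a1a by -1.08 relative to eef1a1l1. For the first eif4a1a probe set relative to eif4a1b the change was 0.78, for eif4ebp3l relative to eif4ebp2 it was 0.64, and for eif5a2 relative to eif5a it was -0.12.

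Among other genes of protein synthesis, ribosomal protein genes and poly(A)-binding protein genes had falls. Of 68 cytosolic ribosomal protein genes, which form the ribosome itself, 31 fell, or 45.6% against 11.7% of all probe sets, and 1 rose. The median change was -0.28, and 65 of the 68 were below 0, against 6000 of all 10335 probe sets tested. All but rps27l read above 9 on every array. Of all probe sets with a mean level of 9 or more 41.3% passed in either direction, against 21.8% at all levels. The share of falls alone at such levels was not counted. The largest falls were small, with rpl23a at -0.55 (SE 0.07, limma adjusted p = 0.00491), and the rise was in rps27l, at 1.63 (SE 0.41, limma adjusted p = 0.0383). After quantile normalization 39 fell, or 57.4% against 15.1% of all probe sets. With median centring 13 fell, or 19.1% against 9.92% of all probe sets. The count of falls also depended on single arrays. It was 4 without transgenic pool 2 (5.88%, against 3.35% of all), 12 without transgenic pool 3 (17.6%, against 8.21%) and 14 without transgenic pool 1 (20.6%, against 7.82%). The median ran from -0.28 to -0.27 over these settings. It was -0.22 with wild-type pool 1 left out and -0.32 with wild-type pool 2 left out. The rise of rps27l was lost when any transgenic pool was left out.

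Poly(A)-binding proteins join the tail of the message to eIF4G at the cap. Of 6 genes of this group 2 fell, or 33.3% against 11.7% of all probe sets, and 0 rose, and their median change was -0.63. Without transgenic pool 2 0 fell, against 3.35% of all probe sets. Without transgenic pool 1 or 3 3 fell, or 50%, against 7.82% and 8.21% of all. The gene pabpc1a read 10.33, 10.43 and 10.34 in transgenic pools and 10.95 and 11.24 in wild-type pools and fell by 0.73 (SE 0.14, limma adjusted p = 0.0145). The gene pabpc1b read 5.46, 5.74 and 6.04 against 7.62 and 7.46 and fell by 1.79 (SE 0.27, limma adjusted p = 0.00774). The gene pabpc4 read 5.44, 6.85 and 7.37 against 8.27 and 8.90, in the same order of transgenic pools as eef2l2, and did not pass (change -2.03, SE 0.59, limma adjusted p = 0.0583). That order was also seen in pabpc1b, and in pabpc1l and paip2b, which did not pass, but not in pabpc1a or paip1.

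Of 13 genes of mTOR and 4E signalling, 1 rose and 0 fell (7.69% and 0%, against 10.1% and 11.7% of all probe sets). The gene that rose was mknk2a, which codes for a kinase that phosphorylates eIF4E. It read 7.80, 7.67 and 7.36 in transgenic pools and 4.14 and 4.38 in wild-type pools, and rose by 3.35 (SE 0.26, limma adjusted p = 0.000628). Its paralog mknk2b had a change of -0.77 (SE 0.39, limma adjusted p = 0.227). Of 18 cytosolic aminoacyl-tRNA synthetase and scaffold genes, which charge tRNAs, 1 rose (5.56%, against 10.1% of all probe sets) and 0 fell. The gene rars1 passed, at 7.83, 7.40 and 6.88 against 5.25 and 4.53, a rise of 2.48 (SE 0.38, limma adjusted p = 0.00818). The median of this list was -0.17, 0.26 with wild-type pool 1 left out and -0.68 with pool 2 left out. Both mknk2a and rars1 had the same order of transgenic pools as the exocrine pancreas, hepatocyte, intestinal absorptive and smooth muscle lists, whose part in these rises was not tested. That order was also seen in factors that did not pass, such as eif4a1b and eif4ebp2.

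Of 7 genes of the integrated stress response, which follows phosphorylation of eIF2, 0 passed by limma (4 at an unadjusted p under 0.05). Such an unadjusted p was seen in 3639 of all 10335 probe sets tested. The gene atf4a was at -0.79 (limma adjusted p = 0.0649), atf3 at 0.74 (0.0553) and the chaperone gene hspa5 at 1.31 (0.101). After quantile normalization 1 of the 7 rose and 2 fell, or 14.3% and 28.6%, against 10.8% and 15.1% of all probe sets. The median of -0.23 became 0.17 with wild-type pool 1 left out and -0.41 with pool 2 left out. Of 4 termination and recycling genes, 4 mitochondrial translation factor genes and 3 genes for hypusine or diphthamide enzymes tested, 0 passed by limma, with medians of 0.39, 0.19 and -0.01 and with 1, 0 and 0 at an unadjusted p under 0.05.

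**Figure D4:**
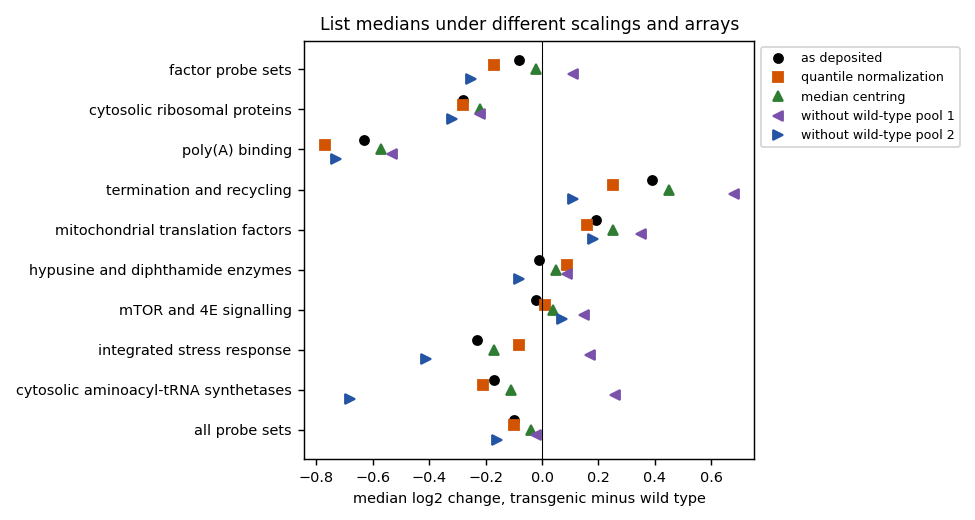
Median log2 change (transgenic minus wild type, x axis) of the factor probe sets, of lists of other protein synthesis genes and of all probe sets tested, under different scalings and with a wild-type pool left out. The medians of the ribosomal protein and poly(A)-binding lists stay below 0 in all 5 settings shown, as does that of all probe sets (-0.16 to -0.02). The median of the factors runs from -0.25 to 0.11.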

How the data were processed

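RNA of 5 pools was measured on 5 arrays of Affymetrix type. The authors deposited 1 log2 expression value per probe set and array. The tool list in the submitters' processing notes holds MAS5, without version, scaling target or log step. The log2 base was inferred from the values (2.23 to 13.58) and affects folds, not directions or tests. No detection calls or intensities were used here. Symbols came from GEO's platform annotation, and none of the 80 factor symbols changed when updated through Entrez identifiers against RefSeq (GRCz12tu).

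The 115 control probe sets were left out. Probe sets were kept that lay at or above an array's 40th percentile on 2 or more arrays (10335 of 15502). Groups were compared with limma 3.58.1 in R 4.3.3 (lmFit, eBayes with a trend, no covariate, two-sided), which was tested on simulated data. The number of arrays limits the precision. Standard errors and 95% intervals come from that model. In lists and pairs of paralogs each gene stands with its brightest probe set. Background bounds, the breakdown by level and 1 alternative were chosen after the data were seen. The labels call pools biological replicates.

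Named are all factor probe sets past the threshold, every probe set of listed isoforms of eEF1, eEF2, eIF1A, eIF4A, eIF4E, eIF5A and 4E-BP, and the regulators eif2ak3, eef2k, eif4enif1 and eif6. Further genes were named with their values in view. The members and lists were chosen with earlier results of these data known. The replicate numbers do not pair the pools in any way the labels state. Factors without a single-symbol probe set, such as eef1a2, were not analysed here. No sequences of the members were used here.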

Additional observations from a re-analysis of the deposited data

How the results depend on the processing

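With 3 and 2 arrays, a factor probe set passed or failed partly by which wild-type pool was present. Of the 72 factor probe sets tested, 46 kept their side of the threshold under all alternatives run and 26 did not, 21 by passing and 5 by losing a call, and 0 changed direction with a call. The call of the second eif4a1a probe set was the only one of the 6 held throughout. Factor probe sets called lower numbered 13 after quantile normalization (18.1%, against 15.1% of all) and 11 at a threshold of 0.1, against 3. Those called higher numbered 1 at a minimum of 2-fold, where 935 of all probe sets were higher. With each array left out, the counts ran from 1 to 7 higher and from 1 to 12 lower, and the median change from -0.25 to 0.11. Over all probe sets, 1821 were lower at a threshold of 0.1 and 780 at a minimum of 2-fold, and with each array left out 633 to 1221 were higher and 346 to 1700 lower. The lone wild-type array then is assumed to vary like the transgenic ones. The cause of these shifts was not tested. With the replicate block, 1 factor probe set was higher and 4 lower, against 3 and 3. Of all 10335 probe sets tested, 934 were higher and 932 lower with that block. Deviations of same-numbered pools from their group means correlated at -0.254 and -0.125. The deviations of 2 wild-type arrays from their mean mirror each other, so these values cannot decide whether the numbers pair the pools. Restricting to probe sets above background in both groups, chosen after the data were seen, left 3 and 3. This restriction reused the adjusted p-values of the main comparison, and all 6 called probe sets met it. These counts could therefore not change.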
